A study of Mus musculus with 8 samples.

Results

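The genes described here encode the enzymes that make reactive oxygen and nitric oxide in the colon, with their partner subunits and 1 epithelial peroxidase: Nox1, Noxo1, Noxa1, Nox4, Cyba, Cybb, Duox2, Duoxa2, Nos2 and Gpx2. They were chosen by name, with earlier results of these data known. Each was read from the probe set annotated with that symbol alone. Of the 10 genes, 8 could be read in this way, among 22184 genes of the array that could. Noxo1 was represented only together with Tbl3, and Duoxa2 only together with Duoxa1, so neither has a value here. Each of the 8 measured genes had exactly 1 such probe set.

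Tumors had been excised from the colon of male FVB/N mice, 4 wild type (WT) and 4 MDR1A KO, with 1 tumor from each mouse on 1 GeneChip Mouse Gene 2.0 ST array. MDR1A KO mice lack, in the germline and so in all cells of the tumor, Abcb1a, the gene of the efflux pump P-glycoprotein. All 8 mice, the WT controls included, received the carcinogen azoxymethane (AOM) once at 6 weeks of age (10 mg/kg) and then 2.5% dextran sulfate sodium (DSS), which injures the colonic epithelium, in drinking water for 7 days in each of 3 cycles starting on days 0, 21 and 42, and tumors were taken on day 84. There was no tissue without tumor and no mouse without AOM/DSS in the comparison. The arrays read RNA of whole tumors, in which fewer cells of a type and less RNA per cell cannot be told apart.

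NADPH oxidases pass electrons across a membrane to oxygen and so make superoxide or hydrogen peroxide. NOX1 is the main such oxidase of colonic epithelium. It pairs in the membrane with the subunit encoded by Cyba and is switched on by the organizer NOXO1 and the activator NOXA1. CYBB is the catalytic subunit of the phagocyte oxidase and shares the Cyba subunit, and NOX4 is an oxidase that is active without such switches. DUOX2 releases hydrogen peroxide at the surface of epithelial cells once DUOXA2 has matured it, NOS2 is the inducible nitric oxide synthase of inflamed epithelium and macrophages, and GPX2 is a glutathione peroxidase of gut epithelium that removes peroxides.

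Values are log2 RMA signals of a probe set, on which a difference of 1 is a 2-fold change, and differences are MDR1A KO minus WT, estimated with limma. Abcb1a itself read 8.69 to 9.46 in the WT and 6.13 to 6.87 in the MDR1A KO tumors, with no overlap (log2 fold change -2.67, standard error (SE) 0.20, limma adjusted p = 0.00599), as the labels state. None of the 10 genes lies on chromosome 5, which holds Abcb1a. Median log2 signal ran from 5.62 to 5.67 over the 8 arrays, and each WT tumor correlated less with the other WT tumors (mean r 0.975 to 0.983) than with the MDR1A KO tumors (0.977 to 0.986). The study prepared RNA with 2 kits, and the sources read here do not tie a kit to a tumor, so a batch of this kind was not tested.

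Of the 8 measured genes, 6 had a higher mean in MDR1A KO tumors and 2 a lower one, and their median log2 fold change was 0.35 against 0.0 over all named probe sets. Of all named probe sets 50.3% had a higher mean. At an unadjusted limma p under 0.05, that is before adjustment over the 25341 named probe sets tested, 4 of the 8 were called, Nox1, Noxa1, Cyba and Nos2, all higher, where 3.66% of all named probe sets were called higher and 2.74% lower. By the study's criterion of an unadjusted p under 0.05 and at least 2-fold change, with limma p-values, Nox1 and Nos2 passed, 2 of 8. Of all named probe sets 0.158% passed as higher. With the unpaired t test of the study's methods, Nox1 passed (p of 0.048) and Nos2 did not (p of 0.0564). The study itself listed Nox1 from these arrays, and not Nos2. The genes were chosen with such results known, so these counts are not those of an independently chosen set. None of the 8 passed an adjusted p of 0.05 in limma (Benjamini-Hochberg), which 4 of all named probe sets passed (0.0158%). None of the 8 had genotypes that did not overlap, whereas 2.13% of named probe sets were higher in every MDR1A KO tumor than in any WT tumor.

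**Figure D1:**
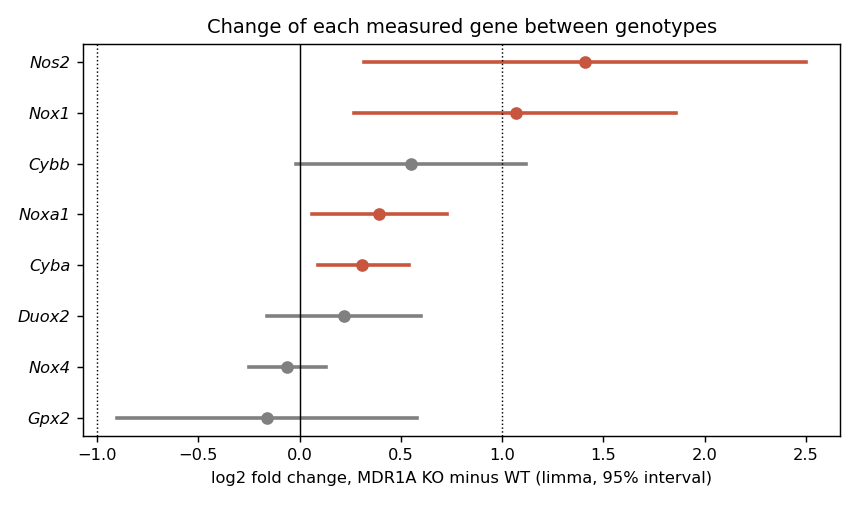
Log2 fold change between genotypes, MDR1A KO minus WT (horizontal axis), for the 8 measured genes, points with 95% intervals from limma, red where the unadjusted p is under 0.05. Dotted lines mark 2-fold changes, and Nos2 (1.41) and Nox1 (1.07) lie past the right one.

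The 4 promoters shown are those of Nox1, of its partners Noxa1 and Cyba, and of Cybb. Nox1, Noxa1 and Cyba had higher means together in MDR1A KO tumors, and CYBB also shares the Cyba subunit. The same 4 windows are those with a match to a GATA-type motif, so the choice does not represent all partners of Cyba. RefSeq windows for GRCm38.p6 were at hand for 9 of the 10 genes, all but Nos2. The 250 bases before the annotated start of each are shown, all from the minus strand, at chrX:134111855-134112104 for Nox1, chr2:25095206-25095455 for Noxa1, chr8:122432941-122433190 for Cyba and chrX:9469325-9469574 for Cybb. Capitals mark letters that match 1 of the 7 motifs searched on both strands.
Nox1: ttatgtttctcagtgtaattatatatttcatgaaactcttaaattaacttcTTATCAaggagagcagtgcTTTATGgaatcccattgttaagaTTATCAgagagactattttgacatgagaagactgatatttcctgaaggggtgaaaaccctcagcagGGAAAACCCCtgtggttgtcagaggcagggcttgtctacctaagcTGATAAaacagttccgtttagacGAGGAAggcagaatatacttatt
Noxa1: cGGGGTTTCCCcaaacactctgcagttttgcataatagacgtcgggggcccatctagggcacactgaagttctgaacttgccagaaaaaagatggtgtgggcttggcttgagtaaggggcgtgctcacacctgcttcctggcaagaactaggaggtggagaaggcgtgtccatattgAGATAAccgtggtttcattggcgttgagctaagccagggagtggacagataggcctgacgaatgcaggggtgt
Cyba: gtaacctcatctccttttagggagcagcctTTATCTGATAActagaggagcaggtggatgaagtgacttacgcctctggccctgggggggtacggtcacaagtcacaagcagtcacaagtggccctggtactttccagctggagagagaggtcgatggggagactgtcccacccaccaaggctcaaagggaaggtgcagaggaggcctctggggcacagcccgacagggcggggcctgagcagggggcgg
Cybb: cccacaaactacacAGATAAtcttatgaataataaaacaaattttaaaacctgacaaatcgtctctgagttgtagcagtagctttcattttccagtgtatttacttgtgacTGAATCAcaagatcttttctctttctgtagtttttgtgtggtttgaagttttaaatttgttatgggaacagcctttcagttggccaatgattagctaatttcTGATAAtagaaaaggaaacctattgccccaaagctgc

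In the Nox1 sequence the capitals are TTATCA (the reverse complement of the GATA-type motif TGATAA) at 199 and 157 bases before the start, TTTATG (CDX) at 180, a match to the kappa-B motif at 91, TGATAA at 46 and GAGGAA (PU.1) at 23. In Noxa1 they are a kappa-B match at 249 and the GATA letters AGATAA at 73. In Cyba they are AGATAA read on the other strand at 220 and TGATAA at 215, which share 1 base. In Cybb they are AGATAA at 236, TGANTCA (AP-1) at 139 and TGATAA at 37. Searched over windows that also hold the 50 bases after the start, 18.6% of 32851 windows of all genes had AGATAA or TGATAA, and 4 of the 9 windows at hand did, those of Nox1, Noxa1, Cyba and Cybb. The kappa-B motif was in 5.8% of all windows, TGANTCA in 7.81%, TTTATG in 11.9% and GAGGAA in 28.3%. The STAT-type motif TTCNNNGAA, in 8.3% of all windows, had a match in Nox4 and in none of the other 8. A match of letters is a description of the sequence and shows no binding.

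Nox1 had a higher mean in MDR1A KO tumors. Its log2 signal was 9.31, 7.83, 8.63 and 7.68 in WT tumors 1 to 4, and 9.47, 9.85, 9.53 and 8.86 in MDR1A KO tumors 1 to 4. WT tumor 1 stood among the MDR1A KO tumors, above tumor 4 of that genotype, and the other 3 WT tumors were below all MDR1A KO tumors. The mean was 8.36 ± 0.76 (SD, n = 4) in WT and 9.43 ± 0.41 (SD, n = 4) in MDR1A KO tumors, a log2 fold change of 1.07 with a SE of 0.35 and a 95% interval from 0.27 to 1.86, or 2.09-fold. The unadjusted limma p was 0.0138 and the p adjusted over 25341 named probe sets was 0.708. The exact two-sided permutation test, whose smallest possible p with 4 tumors against 4 is 0.0286, gave 0.0571. Leaving out each tumor in turn gave 0.84 to 1.38 (limma), and the unadjusted p stayed under 0.05 each time.

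The subunits that work with NOX1 had the same direction and smaller differences. Noxa1, the activator, had a log2 signal of 7.90, 7.70, 7.71 and 7.26 in the WT tumors and 8.25, 7.89, 8.15 and 7.86 in the MDR1A KO tumors. Cyba, the shared membrane subunit, had 9.26, 9.11, 9.09 and 9.07 in WT and 9.50, 9.47, 9.60 and 9.22 in MDR1A KO tumors. In both genes WT tumor 1 was again the 1 WT tumor above the lowest MDR1A KO tumor, which was tumor 4. Noxa1 averaged 7.64 ± 0.27 in WT and 8.04 ± 0.19 in MDR1A KO tumors, and Cyba 9.13 ± 0.09 and 9.45 ± 0.16 (SD, n = 4 each). The log2 fold change was 0.39 for Noxa1 (SE 0.15, unadjusted limma p of 0.0265, adjusted p = 0.745) and 0.31 for Cyba (SE 0.10, unadjusted limma p of 0.0122, adjusted p = 0.708). Exact permutation gave p = 0.0857 for Noxa1 and p = 0.0571 for Cyba. For Noxa1 the unadjusted limma p was 0.0617 without WT tumor 4, 0.0762 without MDR1A KO tumor 1 and 0.0672 without MDR1A KO tumor 3, at log2 fold changes of 0.27, 0.32 and 0.36.

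Nos2 had the largest difference among the 8 genes. Its log2 signal was 8.52, 6.97, 6.64 and 5.99 in WT tumors 1 to 4 and 8.30, 9.15, 7.92 and 8.39 in MDR1A KO tumors 1 to 4. WT tumor 1 exceeded 3 of the 4 MDR1A KO tumors, and the other WT tumors were below all of them. Nos2 spread over 2.53 log2 units among WT tumors and over 1.23 among MDR1A KO tumors. The means were 7.03 ± 1.08 (SD, n = 4) and 8.44 ± 0.52 (SD, n = 4), a log2 fold change of 1.41 with a SE of 0.48 and a 95% interval from 0.32 to 2.50, or 2.65-fold. The unadjusted limma p was 0.0167, the adjusted p 0.73 and the exact permutation p 0.114. The log2 fold change was 1.91 without WT tumor 1 (unadjusted limma p of 0.000253, adjusted p = 0.299) and 1.06 to 1.58 with any other single tumor left out.

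**Figure D2:**
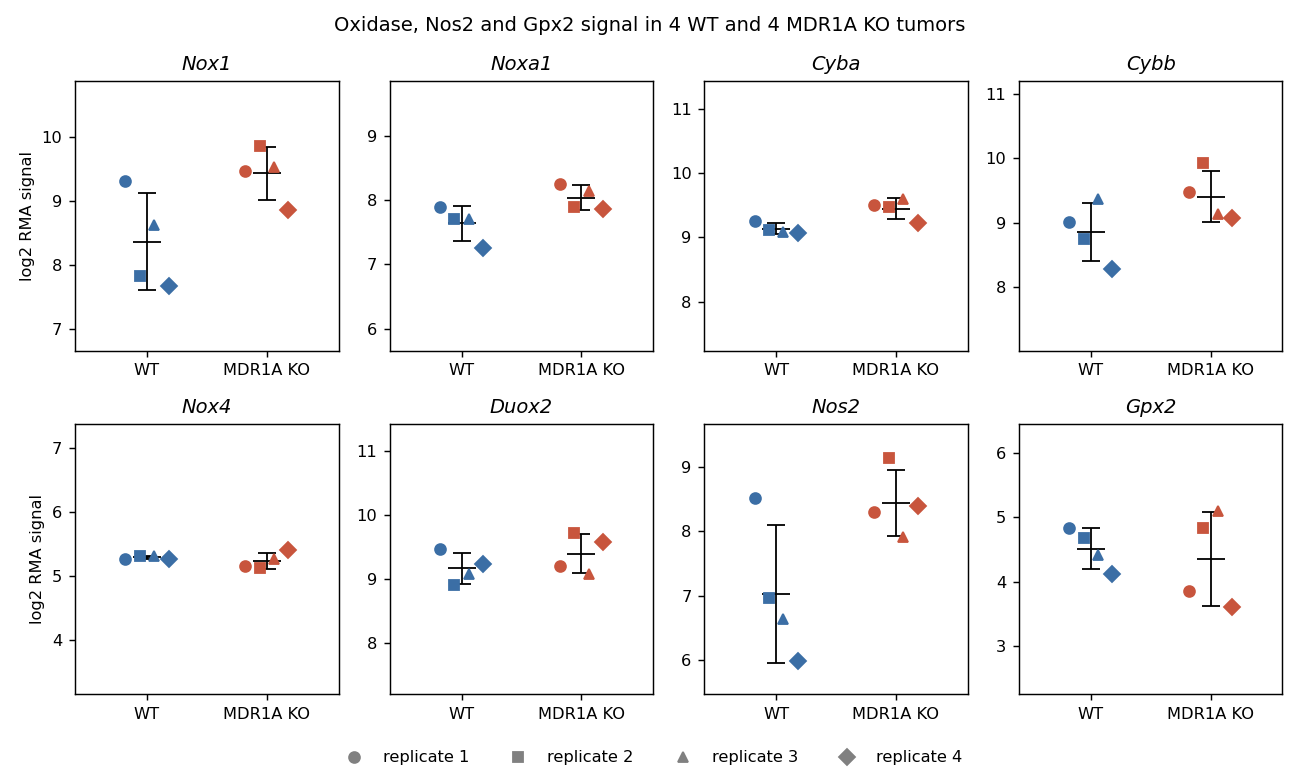
Log2 RMA signal (vertical axes, all of the same height in log2 units) of the 8 measured genes in WT and MDR1A KO tumors. Each symbol is 1 tumor, its shape the replicate number, and bars are mean ± SD of 4 tumors. WT tumor 1 (blue circle) lies among the MDR1A KO tumors for Nox1 (9.31) and Nos2 (8.52).

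Cybb, the catalytic subunit of the phagocyte oxidase, had a log2 signal of 9.01, 8.75, 9.36 and 8.28 in WT tumors and 9.48, 9.93, 9.13 and 9.07 in MDR1A KO tumors. Here WT tumor 3, not tumor 1, lay within the MDR1A KO range, and the means were 8.85 ± 0.45 and 9.40 ± 0.40 (SD, n = 4 each). The log2 fold change was 0.55 (SE 0.25, 95% interval -0.02 to 1.12, unadjusted limma p = 0.0558, adjusted p = 0.782, exact permutation p = 0.114). The unadjusted p went under 0.05 when WT tumor 3 (log2 fold change 0.72, p of 0.0162), MDR1A KO tumor 3 (0.64, p of 0.0485) or MDR1A KO tumor 4 (0.66, p of 0.0399) was left out in the limma fit.

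Macrophages and monocytes are the main source of Cybb transcripts outside granulocytes, and many of their markers were higher in the same tumors. Of 16 macrophage and monocyte markers, all measured, the mean was higher in MDR1A KO tumors for 15, with 9 called at an unadjusted limma p under 0.05, and the median log2 fold change was 0.42 against 0.0 over all named probe sets. The log2 of the list's summed signal was 12.33 to 13.01 in the WT and 12.93 to 13.1 in the MDR1A KO tumors. WT tumor 3, the highest WT tumor for Cybb, was also the highest for this sum (13.01), and WT tumor 4 was the lowest for both (12.33). This order was not particular to macrophages. The same 2 WT tumors were highest and lowest for the sums of fibroblast (13.53 and 12.68), smooth muscle (13.84 and 11.65) and endothelial markers (10.93 and 10.17). For T cell, B cell and plasma cell markers WT tumor 3 was highest and WT tumor 2 lowest. The part of macrophage number in the Cybb difference was not tested.

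Duox2, the peroxide-releasing oxidase of the epithelial surface, read 9.47, 8.90, 9.08 and 9.23 in WT and 9.20, 9.72, 9.08 and 9.57 in MDR1A KO tumors. The genotypes overlapped widely (log2 fold change 0.22, SE 0.17, 95% interval -0.16 to 0.60, limma adjusted p = 0.873). Nox4 lay between 5.13 and 5.40 in all 8 tumors, close to the 5.06 under which 1 in 3 named probe sets lies. Its log2 fold change was -0.06 (SE 0.08, 95% interval -0.25 to 0.13, limma adjusted p = 0.939).

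Gpx2, the epithelial peroxidase, was read below that limit in all tumors but MDR1A KO tumor 3, at 4.84, 4.68, 4.41 and 4.11 in WT and 3.86, 4.83, 5.10 and 3.60 in MDR1A KO tumors. The log2 fold change was -0.16 (SE 0.33, 95% interval -0.90 to 0.58, limma adjusted p = 0.959). Leaving out each tumor in turn moved it from -0.41 to 0.09, so no direction can be given. The genome also holds Gpx2-ps1, a pseudogene copy with a probe set of its own, which read 5.34 to 6.43 in WT and 5.21 to 5.49 in MDR1A KO tumors (log2 fold change -0.47, SE 0.21, unadjusted limma p of 0.0515, exact permutation p = 0.114). Probes of near-identical copies can pick up each other's transcripts, so both values are uncertain.

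Certain tumors tended to be high or low across these genes. WT tumor 1 was the highest WT tumor for 6 of the 8 genes and WT tumor 4 the lowest for 6. How often these tumors were highest or lowest over all named probe sets was not counted. WT tumor 4 also had the lowest mean correlation with other tumors (0.975 with WT, 0.977 with MDR1A KO). All 4 genes called at an unadjusted p under 0.05 had WT tumor 1 highest and WT tumor 4 lowest among WT tumors. Among MDR1A KO tumors, tumor 4 was the lowest for 5 of the 8 genes, among them Nox1, Noxa1, Cyba and Cybb, and tumor 2 the highest for 4, namely Nox1, Cybb, Duox2 and Nos2.

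Tumors WT 4 and MDR1A KO 4 also had the lowest signal of Hoxd13 and Hoxd12, 2 of the 4 measured genes of the distal hindgut. Hoxd13 read 6.03 in WT tumor 4 and 7.12 in MDR1A KO tumor 4, against 10.13 to 10.66 in the other 6. Hoxd12 read 4.68 and 5.39 in these tumors and 5.71 to 7.59 in the rest. The other 2 genes did not set these tumors apart together. Hoxb13 read 7.61 and 7.63 in them and 7.03 to 7.75 in the rest, and Hoxa13 was lowest of all tumors in WT tumor 4 (7.23) and highest in MDR1A KO tumor 4 (8.57). Hoxa13 was itself higher in MDR1A KO tumors without overlap, a pattern that 2.13% of named probe sets showed (log2 fold change 0.83, unadjusted limma p of 0.00152, adjusted p = 0.475). With both tumors left out, an alternative chosen after seeing the data, Nox1 kept a log2 fold change of 1.03 (unadjusted limma p of 0.0183), Noxa1 0.33 (p of 0.0348) and Cyba 0.37 (p of 0.00707), whereas Nos2 had 1.08 with a limma p of 0.0735. The study's criterion was then met by Nox1 alone, 1 of 8. The part of tumor position in these differences was not tested.

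Neutrophil markers had their highest mean log2 signal in WT tumor 1 (7.55), the WT tumor of highest Nos2 (8.52), and their lowest in WT tumor 4 (5.51), the tumor of lowest Nos2 (5.99). The MDR1A KO tumors followed this in part. MDR1A KO tumor 2 had the highest neutrophil mean of its genotype (7.0) and the highest Nos2 (9.15). Its Ltf signal was 11.09 against 5.79 to 7.61 elsewhere. Among MDR1A KO tumors, S100a8, S100a9, Csf3r, Cxcr2 and Retnlg were also highest in tumor 2, whereas Ly6g, Mmp8, Camp and Ngp were not. MDR1A KO tumor 4 had the lowest neutrophil mean of its genotype (5.98), but the lowest Nos2 was in MDR1A KO tumor 3 (7.92 against 8.39 in tumor 4). None of the 10 neutrophil markers was called in either direction at an unadjusted limma p under 0.05 and their median log2 fold change was -0.19, so the list as a whole did not have the direction of Nos2. The part of neutrophils in Nos2 was not tested.

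Most epithelial markers had a small difference of opposite sign to Nox1. Of 14 markers, 3 had a higher mean in MDR1A KO tumors and 11 a lower one, of which 2 were called at an unadjusted limma p under 0.05. These 2 were Krt20 and Cdx2 (log2 fold change -0.65 each), and Cdx2 is also in the list of transcription factor genes below. All other epithelial markers lay between -0.20 (Vil1) and 0.06 (Elf3). The mean log2 signal of the list was 10.63 to 10.77 in WT and 10.47 to 10.57 in MDR1A KO tumors, without overlap, a separation that leaned on Krt20 and Cdx2. Smooth muscle markers had a higher mean in all 8 of 8 genes, none called, with a mean log2 signal of 8.26 in WT tumor 2 and 8.08 in WT tumor 4, the WT tumors with the lowest Nox1, against 9.33 to 10.28 in the other 6. These 2 tumors were also lowest for the mean of macrophage and monocyte (7.9 and 7.78 against 8.31 to 8.64) and T cell markers (5.68 and 6.03 against 6.39 to 6.97). Plasma cell, fibroblast and endothelial means were lowest in them by smaller margins, and neutrophil, B cell and epithelial means did not set them apart. Fibroblast, endothelial and B cell lists had no gene called, T cell markers had 1 higher of 7 and plasma cell markers 2 higher of 8. The part of cell content in the values of Nox1 and its partners was not tested.

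**Figure D3:**
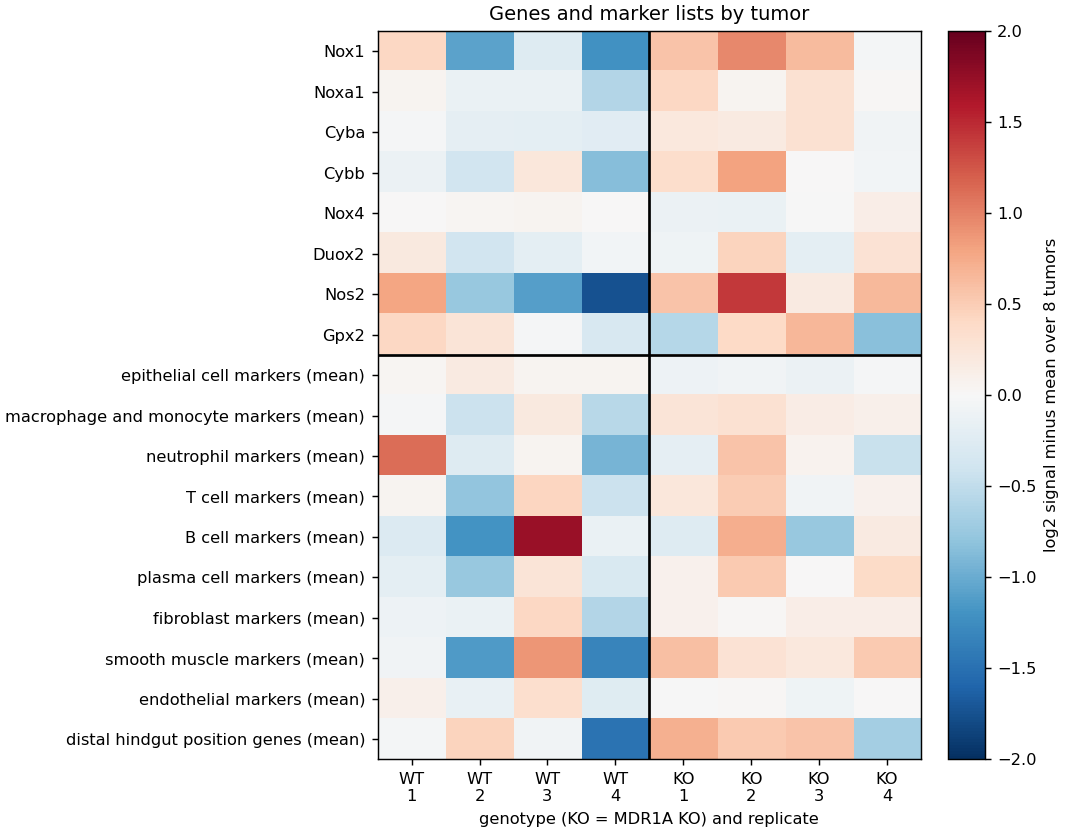
Log2 signal of each measured gene (upper rows) and mean log2 signal of each marker list (lower rows), minus its mean over the 8 tumors, by tumor; red is above and blue below that mean. WT tumor 4 is low for Nox1 (7.68), Nos2 (5.99), and smooth muscle (8.08), and WT tumor 1 has the highest neutrophil mean (7.55).

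Whether 2 of these genes differed between the genotypes to an unequal degree was examined inside each tumor, as the difference of log2 signals, for 6 pairs. Nox1 minus Nox4 was 1.12 higher in MDR1A KO tumors, and Nox1 minus Gpx2 1.23 higher (exact permutation p = 0.0571 for each, adjusted p = 0.171 over the 6 pairs). Nox4 was read close to the limit of 5.06 and Gpx2 mostly below it, so these 2 differences mostly repeat the Nox1 change of 1.07. Nox1 exceeded its partners in change by 0.67 for Noxa1 (exact permutation p = 0.143) and 0.75 for Cyba (p = 0.143, exact), and Cybb by 0.52 (p = 0.114, exact). Nos2 minus Cybb was 0.86 higher, with an exact permutation p of 0.171. The adjusted p was 0.171 for every pair, so none of the 6 differences passed. The smallest p possible in this permutation test is 0.0286, so after adjustment over 6 pairs a pass needed several pairs at that value.

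Nox1 and its activator Noxa1 varied together over the 8 tumors. Pearson's r was 0.82 (exact permutation p = 0.00923, adjusted p = 0.0369 over 4 relations) and Spearman's rho 0.83 (exact permutation p = 0.0154, adjusted p = 0.0616). Pairings were permuted over all 8 tumors, so these p-values also hold the genotype difference that both genes share. The r of the deviations from the genotype means was 0.64, without a test. Without WT tumors 4 and 2, the farthest from the median of Nox1, r was 0.59, so part of the relation rested on these tumors. Nox1 minus Noxa1 differed from tumor to tumor, from 0.13 in WT tumor 2 to 1.96 in MDR1A KO tumor 2.

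**Figure D4:**
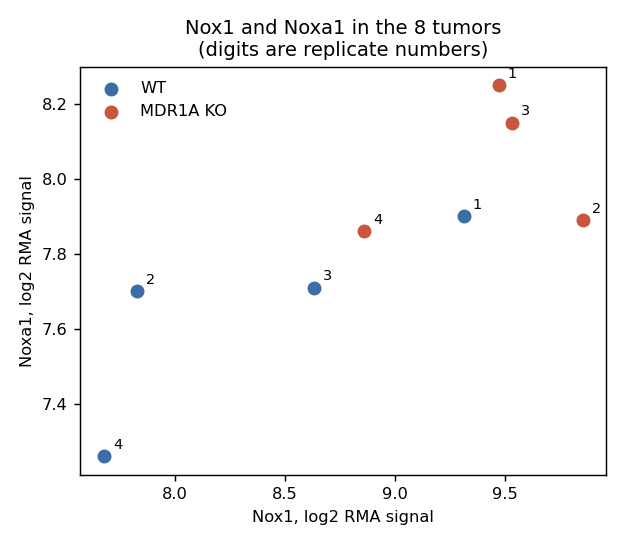
Log2 signal of Nox1 (horizontal) against Noxa1 (vertical) in 8 tumors, blue WT and red MDR1A KO, each point labelled with its replicate number. WT tumor 4 has the lowest values of both (7.68 and 7.26) and WT tumor 1 (9.31 and 7.90) lies beside the MDR1A KO tumors.

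The other relations did not pass. Nos2 with Duox2 had r = 0.69 (exact permutation p = 0.0591, adjusted p = 0.118) and rho = 0.67, with 0.61 for deviations from the genotype means and 0.91 without WT tumors 4 and 3. Cybb with Cyba, the pair that forms the phagocyte oxidase, had r = 0.60 (exact permutation p = 0.118, adjusted p = 0.157) and rho = 0.60, with 0.25 for the deviations and 0.37 without MDR1A KO tumor 2 and WT tumor 4. Nox1 with Gpx2 had r = 0.28 (exact permutation p = 0.497) and rho = 0.43, with 0.56 for the deviations and 0.49 without WT tumors 4 and 2.

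As a description with no test, the genes whose signal followed Nox1 most closely among 18686 were Gpr65, Emd, C1qb, Peg12 and Tnfrsf4, with r from 0.946 to 0.955 over the same 8 tumors. C1qb encodes a chain of complement C1q that macrophages make. For Nos2 they were Mab21l3, Casp4, Nfkbiz, Olfr810 and Dpagt1 (r from 0.963 to 0.970), of which Olfr810 was dim. Casp4 encodes an inflammatory caspase and Nfkbiz an inducible cofactor of NF-kB. For Duox2 they were Ankzf1, Ces3a, Maats1, Ifit1bl2 and Ttc14 (r from 0.910 to 0.969), of which Ces3a and Maats1 were dim.

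The other genes of the same pathways were described by their counts. Of 8 measured genes among 9 other oxidase genes, which include the cytosolic subunits of the phagocyte oxidase, 7 had a higher mean in MDR1A KO tumors but none was called at an unadjusted limma p under 0.05 (median log2 fold change 0.12), or 2 without WT tumor 3. Nox3 and Duox1 were below the dim limit. All 13 other genes of nitric oxide and arginine metabolism were measured, and 9 had a lower mean (median -0.17). Nos3, the endothelial nitric oxide synthase, was the 1 gene called, and the count was 0 without WT tumor 1 and 2 without WT tumor 2. It had a log2 signal of 6.85, 6.53, 6.85 and 6.49 in WT and 6.50, 6.24, 6.49 and 6.41 in MDR1A KO tumors, with a change of -0.27 (log2, SE 0.11, unadjusted limma p of 0.0416, exact permutation p = 0.0571), opposite in sign to Nos2. The Nos3 call was lost without WT tumor 1 (limma p of 0.11), WT tumor 3 (0.107), MDR1A KO tumor 2 (0.115), MDR1A KO tumor 3 (0.0504) or MDR1A KO tumor 4 (0.0714).

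Of 21 measured genes that remove peroxide or superoxide, among 24 listed, 1 was higher and 2 were lower at an unadjusted limma p under 0.05, and the median log2 fold change was -0.03. These 3 calls became 5 without WT tumor 3, 1 without MDR1A KO tumor 1, and 2 or 3 without any other single tumor. Srxn1, which encodes the sulfiredoxin that reactivates peroxiredoxins, had 8.19 to 8.70 in WT and 7.86 to 8.14 in MDR1A KO tumors, with no overlap, a pattern that 1.59% of named probe sets showed in the lower direction (log2 fold change -0.39, SE 0.12, unadjusted limma p = 0.0116, exact permutation p = 0.0286, the smallest possible). Gclm, a subunit of the enzyme that starts glutathione synthesis, differed by -0.23 (log2, SE 0.09, unadjusted limma p of 0.0335, exact permutation p = 0.0571). Its call was lost without WT tumor 1 (limma p of 0.091), WT tumor 2 (0.0574), MDR1A KO tumor 1 (0.085) or MDR1A KO tumor 2 (0.09), whereas Srxn1 stayed under 0.05 in every alternative run. Both genes are known targets of the transcription factor NRF2. Gpx3, the secreted glutathione peroxidase, differed by 0.43 (log2, SE 0.16, unadjusted limma p of 0.0256, exact permutation p = 0.0857), a call lost without WT tumor 2 (0.0678), WT tumor 4 (0.0669), MDR1A KO tumor 1 (0.0707) or MDR1A KO tumor 4 (0.0748). The limma adjusted p was 0.698 for Srxn1, 0.756 for Gclm and 0.74 for Gpx3. None of the 3 measured haem peroxidase genes, of 4 listed, was called (1 without WT tumor 3), and Mpo and Epx were below the dim limit.

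Among 15 measured cytokine and transcription factor genes that act on these enzymes, of 17 listed, 1 was higher and 2 were lower at an unadjusted limma p under 0.05. These 3 calls became 1 without MDR1A KO tumor 2 or MDR1A KO tumor 3, and 2 to 4 without any other single tumor. Tnf, a cytokine that can induce Nos2, read 7.95, 8.15, 7.65 and 7.69 in WT and 8.44, 9.03, 8.43 and 8.02 in MDR1A KO tumors, a difference of 0.62 (log2, SE 0.20, unadjusted limma p of 0.0137, adjusted p = 0.708, exact permutation p = 0.0571). Unlike Nox1 and Nos2, Tnf did not place WT tumor 1 among the MDR1A KO tumors, since the 1 WT tumor above the lowest MDR1A KO tumor was tumor 2. Cdx2, the homeobox gene of intestinal epithelium, differed by -0.65 (log2, SE 0.25, unadjusted limma p of 0.0307, exact permutation p = 0.114) and was highest in WT tumor 4 (8.29) and, among MDR1A KO tumors, in tumor 4 (8.0), those of lowest Nox1 in each genotype. The Cdx2 call was lost without WT tumor 4 (limma p of 0.0837), MDR1A KO tumor 1 (0.0854), MDR1A KO tumor 2 (0.0622) or MDR1A KO tumor 3 (0.0701). Il6 lay below the dim limit in 7 of 8 tumors and read 6.89 in WT tumor 1, with a difference of -1.39 (log2, SE 0.55, unadjusted limma p of 0.0325, exact permutation p = 0.0286) that ran from -1.76 to -0.74 with single tumors left out, with the call lost without MDR1A KO tumor 2 (limma p of 0.0684), tumor 3 (0.0666) or tumor 4 (0.0508). Il10, Il17a and Il22 were below the dim limit.

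**Figure D5:**
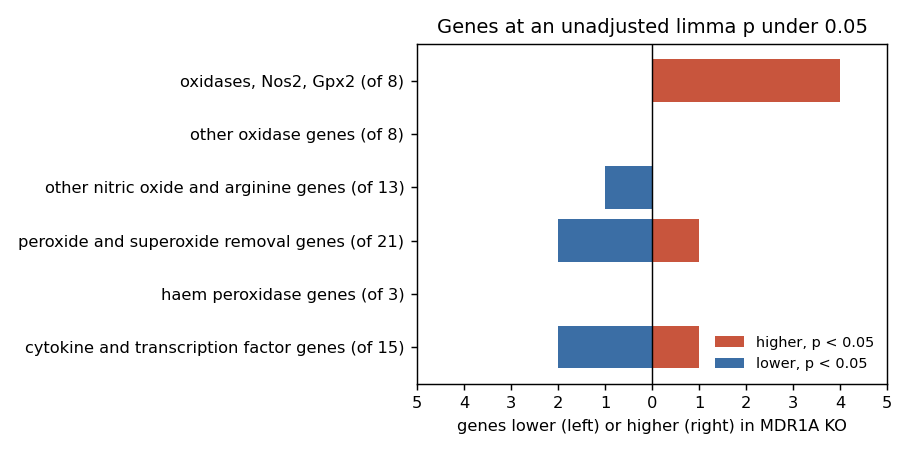
Number of measured genes (horizontal axis) of the group and of the 5 pathway lists, marker lists not shown, with an unadjusted limma p under 0.05, lower (blue, left) or higher (red, right) in MDR1A KO tumors. The oxidase, Nos2 and Gpx2 group has 4 of 8 higher, and each of the 5 pathway lists has at most 1 higher and 2 lower. Of all named probe sets 3.66% were called higher and 2.74% lower. Among the marker lists, macrophage and monocyte markers had 9 of 16 called higher.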

How the data were processed

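RNA of 8 colonic tumors had been hybridised to GeneChip Mouse Gene 2.0 ST arrays, 1 array per tumor. The deposited values are log2 signals per probe set, which the authors made by RMA (background-corrected, quantile-normalized, summarised by probe set) with Expression Console 1.4 of Affymetrix, per the study's methods and the submitters' processing notes. For the arrays, build and annotation release are not given in the sources read here. Of 41345 probe sets, 23525 carried 1 symbol in the platform annotation, 1816 several and 16004 none. Per gene the 1-symbol probe set of highest mean was read.

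limma 3.58.1 in R 4.3.3 (lmFit, eBayes) gave MDR1A KO minus WT, with two-sided p-values, adjusted by Benjamini-Hochberg over 25341 named probe sets. Calls by the study's criterion (unadjusted p under 0.05, at least 2-fold) came from this fit, and the methods' t-test was an alternative. Single values and within-tumor differences were compared by exact two-sided permutation over 70 arrangements, correlations by exact permutation of pairings. Of 8 within-tumor differences and 6 relations planned, those with Noxo1 or Duoxa2 could not be made. The test was checked on simulated data. Alternatives were another variance model, all or only 1-symbol probe sets, dim probe sets left out, recentred or requantiled arrays, weights per array, a block for the replicate number, a 1.5-fold threshold and each tumor left out. The number of arrays limits the precision.

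The genes and lists were chosen with earlier results of these data known. Named are the listed genes, Abcb1a, from each pathway list the genes at an unadjusted p under 0.05 (at most 5), and for Nox1, Nos2 and Duox2 the 5 genes of highest Pearson r, predicted genes and unnamed RNAs left out. The hindgut Hox genes, single cell type markers such as Ltf and Krt20, Gpx2-ps1 and the dim genes were named after their values were seen. Promoter windows and chromosomes come from RefSeq tables for GRCm38.p6. Tables and figures used Python 3.11.15 with matplotlib 3.10.9, scipy 1.17.1, pandas 2.3.3 and numpy 2.4.6.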

Additional observations from a re-analysis of the deposited data

How the results depend on the processing

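Nox1 and Cyba kept their direction and an unadjusted p under 0.05 in all 18 alternatives in which their change was recomputed, and Nos2 in 16 of 18, the methods' t-test (p of 0.0564) and the fit without replicate 4 of both genotypes (limma p of 0.0735, log2 fold change 1.08) being the exceptions. Noxa1 kept both in 14 of 18 and Cybb reached an unadjusted p under 0.05 in 5 of 18. Of 143 recomputed values of the 8 genes, 132 stayed on the same side of the threshold. Gpx2 kept its sign in 15 of 17 and was never called. The lowest adjusted p of any of the 8 genes was 0.299, for Nos2 without WT tumor 1, so the count of genes under an adjusted p of 0.05 was 0 throughout.

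Of the 8 genes, 1 met the study's criterion under the methods' t-test (main 2), 1 without replicate 4 of both genotypes, and 1 to 2 with single tumors left out (1 without WT tumor 2, WT tumor 4 or MDR1A KO tumor 2). The count at an unadjusted p under 0.05 was 2 under the methods' t-test (main 4) and 3 to 5 with single tumors left out. Over all named probe sets, 61 met the criterion, 36 under the methods' t-test, 251 at 1.5-fold, and 58 to 123 with single tumors left out, the highest without WT tumor 3. The same replicate number gave correlations of -0.101 to 0.353 between genotypes, over 0.1 in 2 of 4 pairs, so the numbers were not taken to pair the tumors. With the replicate number as a block, 5 of the 8 genes had an unadjusted p under 0.05, 2 met the criterion, and 65 named probe sets did. The mean of all probe sets of a gene was not run, since each gene had 1. In the main fit the limma adjusted p was 0.77 for Nos3 and 0.756 for Cdx2 and for Il6. Under the methods' t-test the calls of Nos3 (p of 0.0567), Gpx3 (0.0571), Cdx2 (0.0783) and Il6 (0.0887) were also lost. The Gclm call was lost with the replicate number as a block (limma p of 0.0693). The Il6 call was lost under the other variance model (limma p of 0.0617), and the Gpx3 call without replicate 4 of both genotypes (limma p of 0.157). The cause of these shifts was not tested.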
